A study of Mus musculus with 41 samples.

Results

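Mammary tumors that lack p53 differed widely in the transcript of Krt5, the type II keratin of basal mammary epithelium, and the 6 tumors with the most Krt5 were set against the 6 with the least. The 12 tumors came from 13 p53-null tumors among 41 sequenced tumors. They were ranked on the log2(value + 1) of Krt5, and the tumor in the middle of the ranking, p53-null_2225L, was left out. The Krt5-high tumors were p53-null_10151, p53-null_5329, p53-null_10152, p53-null_2224L, p53-null_2331L and p53-null_10155, and the Krt5-low tumors were p53-null_2153L, p53-null_2396R, p53-null_5317, p53-null_7435, T11 and p53-null_2208L. The members were thus chosen by the deposited Krt5 value of each tumor, so its own values are a description with no test. Tumors are named by genotype and number as in the labels, T11 by its number alone, and figures show the number.

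All 41 tumors were BALB/c mammary tumors grown in the mammary fat pad of syngeneic hosts without treatment, with 1 mRNA library per tumor. The 13 tumors ranked here were labelled p53-null, with no loss of Plk2 named. Plk2 was 921 to 8028 in 12 of them, but 186 in p53-null_7435, within the 36.6 to 553 of the 28 tumors labelled as lacking Plk2. This library is called by its label, and the main counts are also given without it. Those 28 lacked both p53 and Plk2 by their labels and served only as samples that the ranking did not use. The tumors were bulk samples, so a lower level of a transcript may come from fewer cells of a type or from less RNA per cell, and these cannot be told apart. Nothing in the labels shows how many p53-null tumors arose separately, so that p-values measure the spread between these samples.

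The mammary epithelium has an outer basal layer and an inner luminal layer. Basal cells hold keratin filaments built from Krt5 and its type I partner Krt14, depend on the transcription factor p63 (Trp63), attach to the basement membrane through hemidesmosomes and contract with smooth muscle actin and myosin. Luminal cells use Krt8 and Krt18, and a part of them carry hormone receptors under the control of Gata3 and Foxa1. Basal keratins are a common mark of basal-like mammary tumors, whereas claudin-low tumors are known for little of the tight junction claudins and for mesenchymal genes.

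Values are those deposited, in which the upper quartile of the genes above 0 is 1000 in every tumor. The value of a single read, taken from the steps between low values, gave 29409598 to 58420034 fragments for the Krt5-high and 35091250 to 70868089 for the Krt5-low tumors. The mean log2 depth was 0.38 lower in the Krt5-high tumors, and the groups overlapped (two-sided exact permutation test, p = 0.128, with 0.00216 the smallest p that 6 against 6 can give). A level of 3 reads, used as the floor of detection, was worth 1.16 to 2.45.

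Krt5 lies on chromosome 15 (GRCm38, 101707070 to 101712898, minus strand). It was 57477 in p53-null_10151, 50880 in p53-null_5329, 34507 in p53-null_10152, 26247 in p53-null_2224L, 19793 in p53-null_2331L and 10620 in p53-null_10155. In the Krt5-low tumors it was 5552 in p53-null_2153L, 2980 in p53-null_2396R, 2590 in p53-null_5317, 434 in p53-null_7435, 11.4 in T11 and 2.38 in p53-null_2208L. The tumor left out, p53-null_2225L, had 6141, close to p53-null_2153L just below it and less far from it than from p53-null_10155 just above. The Krt5-low group was therefore not uniform, since p53-null_2153L, p53-null_2396R and p53-null_5317 still had much Krt5, p53-null_7435 had less, and T11 and p53-null_2208L had almost none.

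**Figure D1:**
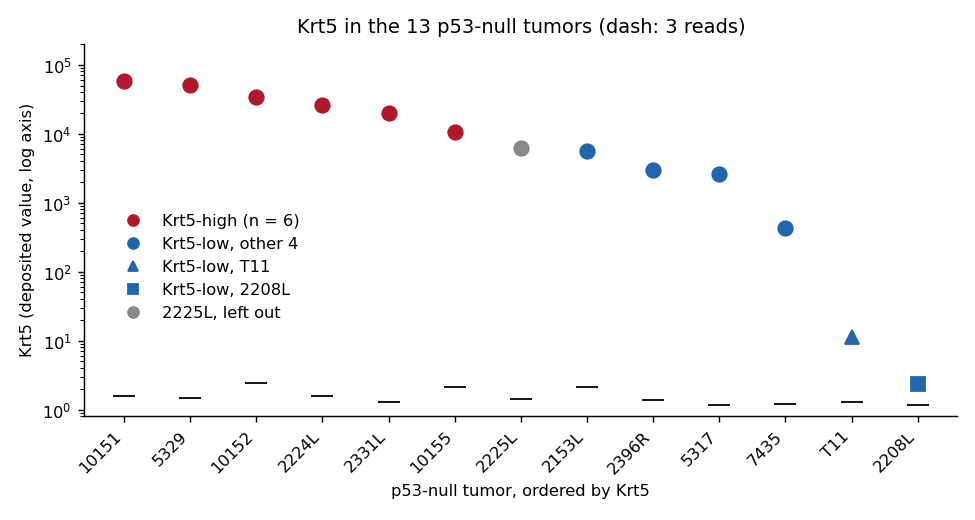
Krt5 in each of the 13 p53-null tumors, as the deposited value on a log axis, with the level of 3 reads as a dash. The Krt5-high tumors lie between 10620 and 57477, the other 4 Krt5-low tumors between 434 and 5552, and T11 (11.4) and p53-null_2208L (2.38) far below them.

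The promoter of Krt5 is shown because this gene set the groups. The 250 bases before its start come from RefSeq (GRCm38.p6, chr15:101712906-101713155, minus strand) and are given with the letters CATG, which form the core of p53-family sites, in capitals.
Krt5: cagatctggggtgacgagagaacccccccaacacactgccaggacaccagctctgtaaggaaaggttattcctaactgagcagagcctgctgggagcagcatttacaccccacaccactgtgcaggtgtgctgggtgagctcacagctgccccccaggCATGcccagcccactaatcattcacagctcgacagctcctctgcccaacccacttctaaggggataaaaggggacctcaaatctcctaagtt
The window held 1 CATG, a palindrome that reads alike on both strands. CATG stood in 53.9% of the 32851 promoters of this length, so that its presence says little.

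T11 and p53-null_2208L were looked at apart, because the study matched T11 to claudin-low tumors and p53-null_2208L to luminal-like tumors. T11 had 19.9 of Cldn3, 6.92 of Cldn4 and 13.8 of Cldn7, claudins of epithelial tight junctions, each the lowest of the 13 tumors. It also had the most S100a4 (62820), Fn1 (116108), Sparc (83911) and Twist1 (1459), genes of mesenchymal cells. In p53-null_2208L, Krt8 was 36836 and Krt18 was 45016, within the range of the other tumors, while Krt19 (9.74) was the lowest of the 13. The receptor Esr1 (24.9) and the luminal factor Gata3 (131) of p53-null_2208L ranked 12th and 11th from the highest, and its Krt7 was 17449.

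Transcripts of skeletal muscle were high in 2 libraries. Skeletal muscle genes summed to 43819 in p53-null_2153L and 31523 in p53-null_7435, both Krt5-low, against 40.6 to 554 in the Krt5-high tumors and 54.6 to 205 in the other Krt5-low tumors. Muscle creatine kinase, Ckm, was 8999 in p53-null_2153L and 4175 in p53-null_7435 and at most 45 in the other 10 tumors. All 8 muscle genes were therefore lower on average in the Krt5-high tumors, with a median difference in mean log2(value + 1) of -2.20, and their part in other results was not tested. The main counts are also given without p53-null_2153L and p53-null_7435.

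No gene differed between the Krt5-high and Krt5-low tumors at an adjusted p below 0.05 (0 of 16684 genes tested with Krt5 set aside, 0.0%; limma on log2(value + 1), Benjamini-Hochberg adjustment). The lowest adjusted p was 0.123. At an unadjusted p below 0.05, 1755 genes (10.5%) differed, 1097 higher (6.58%) and 658 lower (3.94%) in the Krt5-high tumors. The median difference over all genes was 0.04 on the log2 scale. Without T11 and p53-null_2208L, 0 of 16685 genes had an adjusted p below 0.05, and 888 were higher (5.32%) and 916 lower (5.49%) at the unadjusted threshold, 10.8% in all. Without p53-null_7435 alone, 4 genes passed, Blk, Cd163l1, Gm4759 and Sptlc3, and 1496 genes were higher and 638 lower at the unadjusted threshold. Without p53-null_2153L and p53-null_7435, 1 gene passed, Blk (difference 3.04 ± 0.31 SE, limma adjusted p = 0.0329). After quantile normalization 2 genes passed, Dscc1 and Orc1, and the split at the unadjusted threshold was 827 higher and 1064 lower. Unless said otherwise, the differences that follow are values that did not pass the adjusted test over all genes. Counts of list members at an unadjusted p below 0.05 are to be read beside these shares of all genes.

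Groups that did not overlap were few. Of the genes tested, 60 had every Krt5-high tumor above every Krt5-low tumor (0.36%) and 68 had every Krt5-high tumor below (0.408%), 0.767% in all. The 10 of each direction with the smallest p, predicted genes left out, are named here. Their lack of overlap follows from how they were picked.

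Tph1, which makes the rate-limiting enzyme of serotonin synthesis outside the brain, was 9.60 to 188 in the Krt5-high tumors with a median of 93.3. In the Krt5-low tumors it was at most 2.79, with p53-null_2153L at 0 and p53-null_2208L at 0.779, so that the groups were apart. The difference was 4.70 ± 0.67 on the log2 scale (SE, n = 6 and 6, limma adjusted p = 0.123). Msrb3, a methionine sulfoxide reductase, was 1729 to 3570 against 412 to 999.7, a difference of 1.82 ± 0.28 with the same adjusted p. The aryl hydrocarbon receptor gene Ahr was 1669 to 5746 against 462 to 1248 (1.99 ± 0.37, limma adjusted p = 0.153), with the most in p53-null_10151 and p53-null_5329.

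Slc22a18, an imprinted transporter gene, was 249.6 to 1194 in the Krt5-high tumors and 8.57 to 101 in the Krt5-low tumors. Vtcn1, which encodes the immune checkpoint ligand B7-H4, was 531 to 1427 against 102 to 469.7. Slc9a3r2, a PDZ scaffold gene, came close to overlap, with 955 in p53-null_10151 and 947 in T11. Tmem56 spread widely within the Krt5-high tumors, from 299 in p53-null_5329 to 15669 in p53-null_2331L, and was 21.1 to 71.0 in the Krt5-low tumors.

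The remaining genes of this kind were low in most tumors. Fam25c was 24.3 to 1469 against 0 to 10.5, and Blk, a Src family kinase gene of B cells, was 17 to 37.1 against 1.16 to 11.6. Fam3b was 2.43 in p53-null_5329 and up to 170 in p53-null_10155, while no Krt5-low tumor had more than 3 reads of it, so no fold is given. In these 10 genes the tumor left out, p53-null_2225L, lay below every Krt5-high tumor in 9 and within the range of the Krt5-low tumors in 5.

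Of the 10 genes named as lower in every Krt5-high tumor, several take part in DNA replication or cell division and others do not. Ect2, the exchange factor that starts cytokinesis, was 462 in p53-null_10152, 628 in p53-null_5329, 707 in p53-null_10155, 846 in p53-null_10151, 955 in p53-null_2331L and 1103 in p53-null_2224L. It was 1600.2 in p53-null_2208L, 1832 in p53-null_2153L, 1902 in p53-null_5317, 2651 in T11, 2659.5 in p53-null_7435 and 3152 in p53-null_2396R. Both groups were compact, and the difference was -1.57 ± 0.26 on the log2 scale (n = 6 and 6, limma adjusted p = 0.123).

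Orc1, a subunit of the origin recognition complex, was 76.0 to 123 in the Krt5-high and 189 to 366 in the Krt5-low tumors (-1.22 ± 0.21, limma adjusted p = 0.123). Dscc1, part of a clamp loader for sister chromatid cohesion, was 65.7 to 105 against 157 to 352 (-1.35 ± 0.23, the same adjusted p). Cdc45, a component of the replicative helicase, was 233 to 556 against 615 to 1079, and the centromere gene Cenpi was 163 to 313 against 398 to 632. The gap between the groups in each of these genes is part of how they were picked and no separate result.

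The histone methyltransferase gene Suv39h1 was 369 to 972 against 1147 to 2372. Dhcr7, the last enzyme of cholesterol synthesis, was 695 to 949 in the Krt5-high tumors and 1532 to 4463 in the Krt5-low tumors. Eps8, an actin regulator, was 651 to 1475 against 1639 to 8033, with the most in T11, and the kinase genes Tnik (351 to 759 against 914 to 1997) and Dyrk3 (187 to 417 against 456 to 692) were also apart. The adjusted p of the 10 genes ran from 0.123 to 0.250. In all 10 genes p53-null_2225L lay above every Krt5-high tumor, and in 7 within the range of the Krt5-low tumors.

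**Figure D2:**
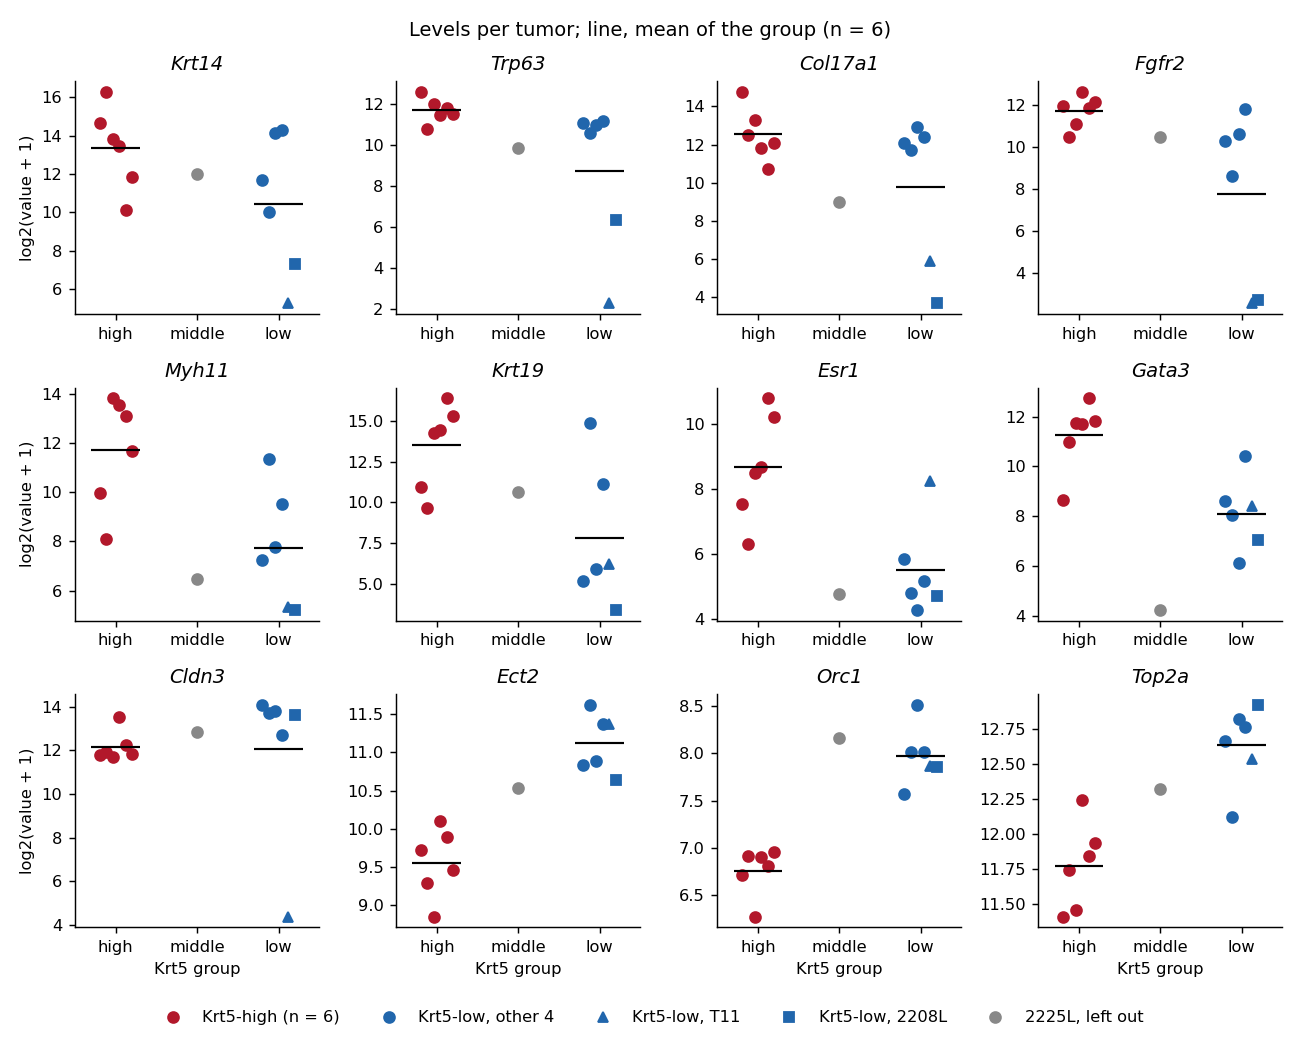
Levels of 12 genes in each tumor as log2(value + 1), by Krt5 group, with the group mean as a line. For Krt14, Col17a1 and Fgfr2 the other 4 Krt5-low tumors overlap the Krt5-high tumors, with T11 and p53-null_2208L far below. For Trp63 those 4 lie at and below the low end of the Krt5-high range, again with T11 and p53-null_2208L far below. For Cldn3 T11 alone lies below, and for Ect2 and Orc1 the groups do not overlap.

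The basal keratins other than Krt5 had a median difference of 2.91 on the log2 scale, and all 7 tested were higher on average in the Krt5-high tumors, as were 53.2% of all genes. At an unadjusted p below 0.05, 2 were higher, Krt6a and Krt6b, and 0 lower, against 6.58% and 3.94% of all genes. Without T11 and p53-null_2208L the median was 0.82 and 0 of 7 passed that threshold. Among the 13 tumors, T11 and p53-null_2208L were each among the 2 lowest for 5 of these 7 keratins. Krt6a and Krt6b, and Krt14, Krt16 and Krt17, are close copies that can share reads with each other, so their separate levels are uncertain.

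Krt14, the partner of Krt5, was 80243 in p53-null_5329, 26130 in p53-null_10151, 14317 in p53-null_10152, 11118 in p53-null_2224L, 3662 in p53-null_10155 and 1099 in p53-null_2331L. Among the Krt5-low tumors it was 20342 in p53-null_7435, 18283 in p53-null_5317, 3243 in p53-null_2153L, 1038 in p53-null_2396R, 157 in p53-null_2208L and 37.0 in T11. The groups overlapped widely, with p53-null_7435 above 4 of the Krt5-high tumors although its Krt5 was only 434 (difference 2.91 ± 1.59, limma adjusted p = 0.547, and 0.82 ± 1.23 without T11 and p53-null_2208L). Krt17 was 2131 to 19196 in the Krt5-high tumors and 3208 to 8423 in the other 4 Krt5-low tumors, with 203 in p53-null_2208L and 0.866 in T11.

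Krt6a, a keratin of activated and progenitor epithelium, was 404 to 40512 in the Krt5-high tumors with a median of 3482, and 39.0 to 1244 in the Krt5-low tumors. The tumor p53-null_5329 had the most of it and also the most Krt14, Krt16 (7069) and Krt17. Krt15, a keratin of basal stem cell compartments, was 57844 in p53-null_10152 and 51.6 in p53-null_2224L, the highest and, T11 aside, the lowest of the 13 tumors within 1 group. High Krt5 thus stood beside very different amounts of the other basal keratins.

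Trp63, which encodes the p63 factor of basal cells, was 1796 to 6309 in the Krt5-high tumors with a median of 3299. It was 1563 to 2314 in the other 4 Krt5-low tumors, 80.7 in p53-null_2208L and 3.90 in T11. Of the Krt5-high tumors 5 of 6 lay above all Krt5-low tumors (difference 2.96 ± 1.39, limma adjusted p = 0.480), and without T11 and p53-null_2208L the difference was 0.75 ± 0.33. Of 18 basal transcription factors, 2 were higher and 1 lower at an unadjusted p below 0.05, and the list median was 1.04, or 0.20 without T11 and p53-null_2208L.

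Snai2, a zinc finger factor of basal cells, was 521 to 1516 against 38.6 to 807, with the overlap in p53-null_10155, p53-null_5329 and p53-null_2224L. Bnc1, a factor of stratified epithelium, was 218 to 519 in the Krt5-high tumors, but the most was in p53-null_5317 (1211), a Krt5-low tumor. Sox15 went the other way, with 0.817 to 121 in the Krt5-high tumors and 105 to 427 in the other 4 Krt5-low tumors (difference without T11 and p53-null_2208L -4.01 ± 1.02, limma adjusted p = 0.299). The tumor left out had 243 of Sox15, within the range of those 4 tumors.

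Among genes of cell attachment, Col17a1 followed T11 and p53-null_2208L more than the Krt5 groups. Col17a1, the hemidesmosome collagen, was 1711 to 28020 in the Krt5-high tumors and 3325 to 7685 in the other 4 Krt5-low tumors, against 58.4 in T11 and 11.7 in p53-null_2208L. Its difference was 2.76 ± 1.56 over all 12 tumors and 0.27 ± 0.67 without those 2 tumors (limma adjusted p = 0.566 and 0.910). Of 14 hemidesmosome and basement membrane genes, 1 was higher at an unadjusted p below 0.05, the laminin gene Lama3 (1319 to 7143 against 40.7 to 2562), and 0 were lower. The median of the list was 0.17, and -0.23 without T11 and p53-null_2208L. Of 12 desmosome genes 0 passed in either direction, with a median of 0.84, or 0.11 without those 2 tumors. The desmosome median was 0.28 without T11 alone and 0.96 without p53-null_2208L alone, so it did not fall with p53-null_2208L left out.

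Summed squamous differentiation genes were 13443 to 26749 in the Krt5-high tumors and 10236 to 33707 in the other 4 Krt5-low tumors. The sum was 754 in T11 and 8477 in p53-null_2208L. Of 19 genes tested, 17 were higher on average in the Krt5-high tumors, as were 53.2% of all genes, and 12 without T11 and p53-null_2208L. At an unadjusted p below 0.05, 2 were higher and 0 lower. The median difference was 1.02, or 0.21 without T11 and p53-null_2208L. Krt4, a keratin of stratified internal epithelium, was 7965 in p53-null_2331L and 14 to 198 in the other Krt5-high tumors, against 0 to 65.0 in the Krt5-low tumors. Ly6d, a surface protein of stratified epithelium, was 961 to 4893 in the Krt5-high tumors and 0.779 to 5464 in the Krt5-low tumors, where p53-null_5317 had the most. Lgals7, which encodes galectin-7 of stratified epithelium, was lower in the Krt5-high tumors (1334 to 4039) than in the other 4 Krt5-low tumors (5205 to 19063), with no overlap (-2.26 ± 0.44 without T11 and p53-null_2208L, limma adjusted p = 0.272). In that comparison 261 of 16685 genes (1.56%) were lower with no overlap. Of 9 hair follicle genes, 1 was higher, Krt28, which p53-null_5329 lacked (0) and p53-null_2331L had at 84.2, and the median was 0.55, or -0.23 without T11 and p53-null_2208L.

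The contractile genes of myoepithelium were the basal list with the most members past the unadjusted threshold, with a median difference of 2.33 on the log2 scale. Of 11 members 7 were higher and 0 lower, against 6.58% and 3.94% of all genes. Without T11 and p53-null_2208L the median was 1.57 and 1 of 11 was higher, against 5.32% of all genes. Without p53-null_2153L and p53-null_7435 the median was 2.64 and 7 were higher, where 1275 of 16573 genes were. The contractile count was 4 without T11, p53-null_10152, p53-null_2224L or p53-null_2331L, each left out alone, where 929 to 1113 genes were higher. Smooth muscle myosin, Myh11, was 14368 in p53-null_10152, 12007 in p53-null_2224L, 8673 in p53-null_2331L, 3295 in p53-null_10155, 994 in p53-null_10151 and 272 in p53-null_5329. It was 2627 in p53-null_2396R, 739 in p53-null_7435, 216 in p53-null_5317, 149 in p53-null_2153L, 39.4 in T11 and 36.2 in p53-null_2208L. Of the Krt5-high tumors, 4 lay above all Krt5-low tumors, whereas p53-null_5329 and p53-null_10151, those with the most Krt5, did not (difference 3.96 ± 1.23, limma adjusted p = 0.320).

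Mylk, the kinase of the myosin light chain, was 585 to 13342 against 179 to 2309, with only p53-null_5329 among the Krt5-low values (3.03 ± 0.83, limma adjusted p = 0.287). Smooth muscle actin, Acta2, was 57576 to 92274 in p53-null_10152, p53-null_2331L and p53-null_2224L and 3885 to 17388 in the other Krt5-high tumors, and 2805 to 25387 in the Krt5-low tumors. The same 3 tumors had the most Myl9 (13231 to 20752). Smooth muscle of vessels carries many of these genes as well.

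Luminal keratins did not mirror Krt5. Krt8 was 20688 to 67904 in the Krt5-high tumors and 11057 to 116097 in the Krt5-low tumors apart from p53-null_5317, where it was 198. Krt18 was 20617 to 58839 against 16732 to 95210 (difference 0.12 ± 0.40, limma adjusted p = 0.941), so the Krt5-high tumors had the simple keratins too. Krt19 was 797 in p53-null_5329, 1999.5 in p53-null_10151 and 19684 to 84670 in the other Krt5-high tumors. Among the Krt5-low tumors it was 30006 in p53-null_2396R and 2275 in p53-null_7435 and at most 73.6 in the rest (5.69 ± 1.88, limma adjusted p = 0.344). Of 14 luminal keratin and adhesion genes, Krt19 was the only 1 past the unadjusted threshold, and the list median was 0.93, or -0.15 without T11 and p53-null_2208L.

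Hormone receptor and luminal factor genes were higher on average in the Krt5-high tumors, for 14 of 15 members, with a median difference of 2.31. At an unadjusted p below 0.05, 6 of 15 were higher and 0 lower, against 6.58% and 3.94% of all genes. Unlike that of the basal keratins the median was larger without T11 and p53-null_2208L, at 2.46. Again 6 were higher, against 5.32% of all genes. The list count was 8 without p53-null_7435, where 1496 of 16609 genes were higher. It was 4 to 7 with any other tumor left out, where 855 to 1113 genes were higher. With the 4 highest against the 4 lowest tumors it was 3, where 577 of 16645 genes were higher. Esr1, the estrogen receptor, was 1757 in p53-null_2331L, 1164 in p53-null_10155, 405 in p53-null_2224L, 356 in p53-null_10152, 184 in p53-null_10151 and 76.9 in p53-null_5329. In the Krt5-low tumors it was 303 in T11, 55.5 in p53-null_2153L, 35.1 in p53-null_7435, 26.8 in p53-null_2396R, 24.9 in p53-null_2208L and 18.2 in p53-null_5317. Apart from T11 the groups did not overlap, with differences of 3.15 ± 0.83 over 12 tumors and 3.64 ± 0.80 without T11 and p53-null_2208L (limma adjusted p = 0.272 and 0.285).

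Gata3, the factor of luminal cell fate, was 2008 to 6817 in 5 Krt5-high tumors and 395 in p53-null_10151, against 69.4 to 1373 in the Krt5-low tumors (3.16 ± 0.77, limma adjusted p = 0.271). Cited1, a transcriptional coregulator of hormone-sensing cells, was 983 to 5242 in 5 Krt5-high tumors and 58.9 in p53-null_5329, against 19.9 to 189.8 (4.34 ± 1.0, limma adjusted p = 0.259). The prolactin receptor gene Prlr was 621 to 11191 against 5.63 to 1360. Foxa1, a pioneer factor for the estrogen receptor, was 2672 to 3435 in p53-null_2224L, p53-null_10155 and p53-null_2331L, but 19 in p53-null_5329, and 1.30 to 734 in the Krt5-low tumors. The tumors p53-null_2224L, p53-null_2331L and p53-null_10155 had the most Foxa1, Esr1 and Prlr, while p53-null_10151 and p53-null_5329, at the top of the Krt5 ranking, had the least Esr1 of the group.

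Milk genes depended on few tumors. Of 15 genes, 0 passed the unadjusted threshold, although the median difference was 1.97. The casein gene Csn2 was 257509 in p53-null_5329 and 4484 in p53-null_10152, 12.8 to 415 in the other Krt5-high tumors and 0 to 497 in the Krt5-low tumors. In p53-null_5329 Mfge8, a milk fat globule protein gene, was 334501, against 15247 to 56030 in the other Krt5-high tumors.

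Tight junction and mesenchymal genes followed T11. The median of 13 tight junction genes was 0.46 and became -0.46 without T11 and p53-null_2208L, with 0 of 13 past the unadjusted threshold over 12 tumors and 3 lower without those 2. With p53-null_2396R left out as well, the median was 0.08 and 1 was lower, so that the lower level against the other 4 Krt5-low tumors rested on p53-null_2396R. That of 14 mesenchymal genes was 0.24 and became 0.70, with 0 of 14 past the threshold in both.

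Of the genes that the study followed in these tumors, Plk2, Met, Cldn3 and Cldn7 were tested singly (two-sided exact permutation tests, adjusted over the 4 genes by Benjamini-Hochberg). Plk2 was 921 in p53-null_5329 and 3092 to 8028 in the other Krt5-high tumors, and 186 in p53-null_7435 and 2317 to 4013 in the other Krt5-low tumors. The difference was 0.93 on the log2 scale (n = 6 and 6, exact permutation adjusted p = 1), and 0.26 without p53-null_7435. Met, a receptor tyrosine kinase gene, was 1154 to 3849 in the Krt5-high tumors and 144 to 3377 in 5 Krt5-low tumors, against 93104 in p53-null_2208L. Its difference was -0.39 with all 12 tumors and 0.62 without p53-null_2208L, and neither passed the exact test.

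Cldn3 showed most plainly how T11 set a comparison. It was 3293 to 4923 in 5 Krt5-high tumors and 11678 in p53-null_2224L. It was 6738 in p53-null_7435, 12533 in p53-null_2208L, 13630 in p53-null_2396R, 14178 in p53-null_5317 and 17438 in p53-null_2153L, against 19.9 in T11. The difference was 0.11 with T11 and -1.42 without it (exact permutation adjusted p = 1 and 0.0346 over the 4 genes), and without both T11 and p53-null_2208L it was again -1.42 (exact permutation adjusted p = 0.0571). Cldn7 had 0.52 with T11 and -0.92 without it (exact permutation adjusted p = 1 and 0.0606). The study marks claudin-low tumors, to which it matched T11, by low Cldn3 and Cldn7. Leaving T11 out therefore selects on the genes tested. The p-values without it are also not adjusted for the settings tried, so they describe the values and are no support for a difference.

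Genes of receptor pathways gave single members rather than lists. Of 13 Notch genes, 3 were higher at an unadjusted p below 0.05 and 0 lower, the receptor gene Notch4 (519 to 1354 against 176 to 579.9) and the ligand genes Dll4 (293 to 1160.5 against 145 to 587) and Jag1 (1276 to 4863 against 625 to 2167). Notch4 and Dll4 are also genes of endothelium, whose markers moved with them as given below. Of 21 Wnt genes 3 were higher and 0 lower. The ligand gene Wnt5a was 902 to 3709 in the Krt5-high tumors and 122 to 539 in the Krt5-low tumors other than T11, where it was 1244 (2.49 ± 0.57, limma adjusted p = 0.259), and Wnt4, a ligand downstream of progesterone, was 433 to 1699.7 against 4.76 to 1187. Of 14 ErbB and Met family genes 2 were higher and 0 lower. Mst1r, the receptor of macrophage-stimulating protein, was 23.9 in p53-null_2224L and 93.4 to 1242 in the other Krt5-high tumors, against 8.18 to 67.5.

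Proliferation genes were lower on average in the Krt5-high tumors for all 15 members, and 12 of 15 were lower at an unadjusted p below 0.05, against 3.94% of all genes, with 0 higher. The median difference was -0.87 on the log2 scale, or -0.92 without T11 and p53-null_2208L, where 12 were again lower, against 5.49% of all genes. Without p53-null_2153L and p53-null_7435 the median was -0.75 and 5 of 15 were lower, where 589 of 16573 genes were. Without p53-null_7435 alone they were -0.87 and 9, where 638 of 16609 genes were lower. With the 4 highest against the 4 lowest tumors they were -0.95 and 7, where 373 of 16645 genes were lower. Against the other 4 Krt5-low tumors the count was 6 without p53-null_2153L or p53-null_5317, fits for which no share of all genes is given. No member passed the adjusted test. In the slope on Krt5 over 13 tumors, given below, 1 of 15 fell and 0 rose at an unadjusted p below 0.05. There 519 of 16665 genes fell.

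Top2a, the topoisomerase of dividing cells, was 2719 to 4841 in the Krt5-high and 4453 to 7768 in the Krt5-low tumors, where p53-null_2224L alone overlapped with p53-null_2396R (-0.87 ± 0.21, limma adjusted p = 0.271). The mitotic cyclin gene Ccnb1 was 734 to 2214 against 2013 to 3902 (-1.19 ± 0.31, limma adjusted p = 0.272). Aurkb, a mitotic kinase gene, was 451 to 957 against 776 to 1693, and Mcm5, of the replicative helicase, was 1179 to 2365 against 2351 to 4049.9. Plk1, the mitotic kinase that the study inhibited, was 469.9 to 1293 against 729 to 2333 (-0.99 ± 0.35, limma adjusted p = 0.367), and was named after its values were seen. The summed level of the 15 genes was 18033 to 41712 in the Krt5-high and 29314 to 60295 in the Krt5-low tumors, with 63822 in p53-null_2225L, the highest of the 13.

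The promoters of Top2a and Ect2 are shown because such genes share promoter elements, the CCAAT box (CCAAT) and the cell cycle homology region (TTTGAA). The windows are 250 bases before the RefSeq start (GRCm38.p6), at chr11:99024190-99024439 for Top2a and chr3:27153879-27154128 for Ect2, both on the minus strand, with matches on either strand in capitals.
Top2a: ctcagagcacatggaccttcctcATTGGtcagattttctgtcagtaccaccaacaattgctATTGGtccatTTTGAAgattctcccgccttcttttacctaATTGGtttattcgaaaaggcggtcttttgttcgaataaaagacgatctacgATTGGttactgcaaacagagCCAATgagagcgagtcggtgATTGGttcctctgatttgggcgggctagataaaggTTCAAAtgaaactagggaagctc
Ect2: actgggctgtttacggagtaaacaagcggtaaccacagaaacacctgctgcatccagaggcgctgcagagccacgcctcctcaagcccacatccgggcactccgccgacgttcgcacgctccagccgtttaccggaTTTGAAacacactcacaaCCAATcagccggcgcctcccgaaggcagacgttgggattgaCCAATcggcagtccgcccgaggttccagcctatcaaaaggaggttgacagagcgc
Top2a held 6 CCAAT and 2 TTTGAA matches, and Ect2 held 2 and 1. A further Ect2 window from another RefSeq start (chr3:27153855-27154104), not shown, held 3 and 1. Of the 13 proliferation genes with a promoter in the table, 12 had a CCAAT match, against 33.8% of 32851 promoters, and 6 had TTTGAA, against 16% of them. The 13 hormone receptor and luminal factor genes with a promoter had 21 promoters, of which 5 had CCAAT and 1 had TTTGAA. These matches describe the letters in the window.

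**Figure D3:**
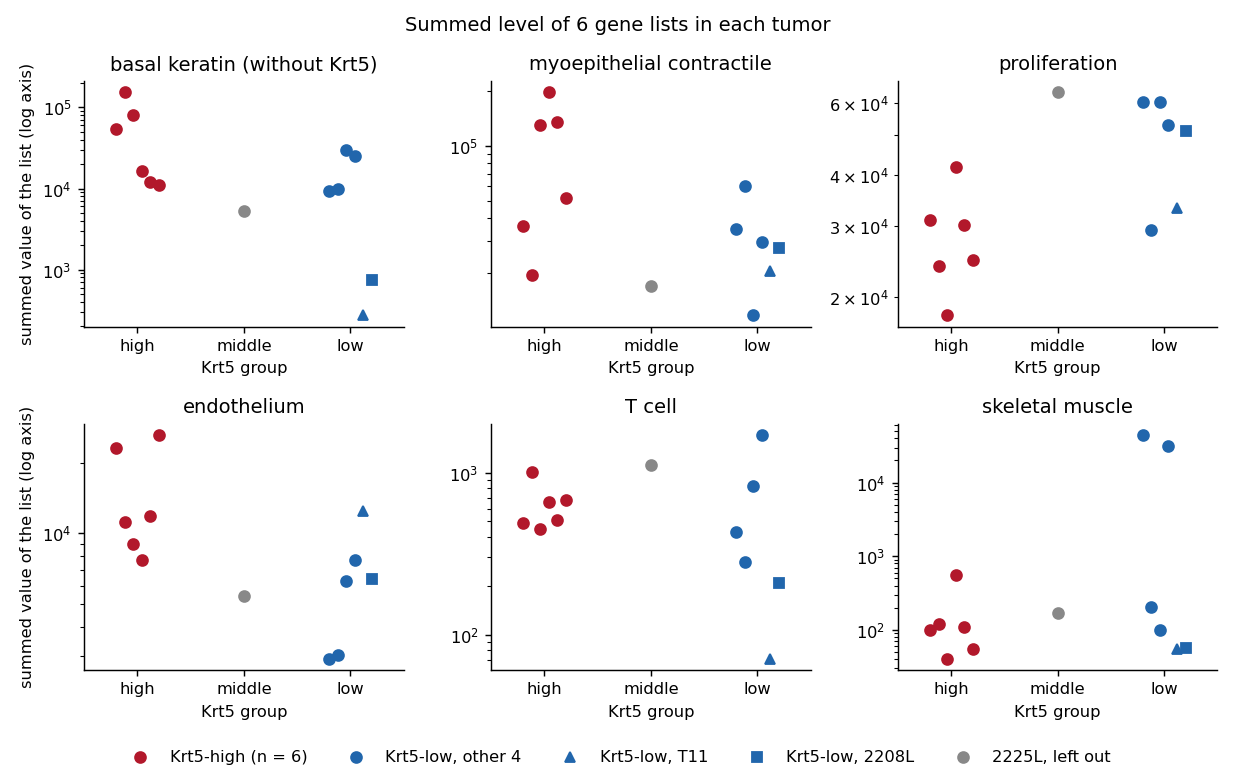
Summed deposited value of 6 gene lists in each tumor on log axes, by Krt5 group. The proliferation sums are 18033 to 41712 in the Krt5-high and 29314 to 60295 in the Krt5-low tumors, and skeletal muscle is high in p53-null_2153L (43819) and p53-null_7435 (31523) only.

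Markers of other cell types also moved with the Krt5 groups. Endothelial markers were higher on average in the Krt5-high tumors for 9 of 9 members, with a median difference of 1.22. At an unadjusted p below 0.05, 7 of 9 were higher and 0 lower, against 6.58% and 3.94% of all genes. Without T11 and p53-null_2208L all 9 passed that threshold, where 5.32% of all genes were higher. With the 4 highest against the 4 lowest tumors the median was 0.69 and 0 of 9 passed. The endothelial receptor gene Tie1 was 638 to 2115 against 208 to 769, with T11 the highest of the Krt5-low tumors. Summed endothelial markers were 7701 to 26100.2 in the Krt5-high tumors, 12421 in T11 and 2937 to 7728 in the other 5 Krt5-low tumors.

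Of 9 T cell markers 5 were higher and 0 lower, against 6.58% and 3.94% of all genes. Still, the highest sum was that of p53-null_7435 (1697), a Krt5-low tumor, against 450.3 to 1006 in the Krt5-high tumors. The T cell count was 1 higher and 1 lower without T11 and p53-null_2208L, where 5.32% and 5.49% of all genes were. It was 2 higher without T11, 2 without p53-null_5329, 8 without p53-null_7435 and 3 to 6 with any other tumor left out. Without p53-null_7435, 1496 of 16609 genes were higher, and 855 to 1113 genes with any other tumor left out. Cd3g, a chain of the T cell receptor complex, was 37.8 to 150.2 against 2.33 to 81.7. Of 11 fibroblast markers 2 were higher, of 7 pericyte markers 1, and of 3 B cell markers tested 1, with 0 lower in each. Macrophage (9 genes), neutrophil (6), adipocyte (7) and red blood cell (5) markers had 0 past the threshold. The part of these cells in the other differences was not tested.

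**Figure D4:**
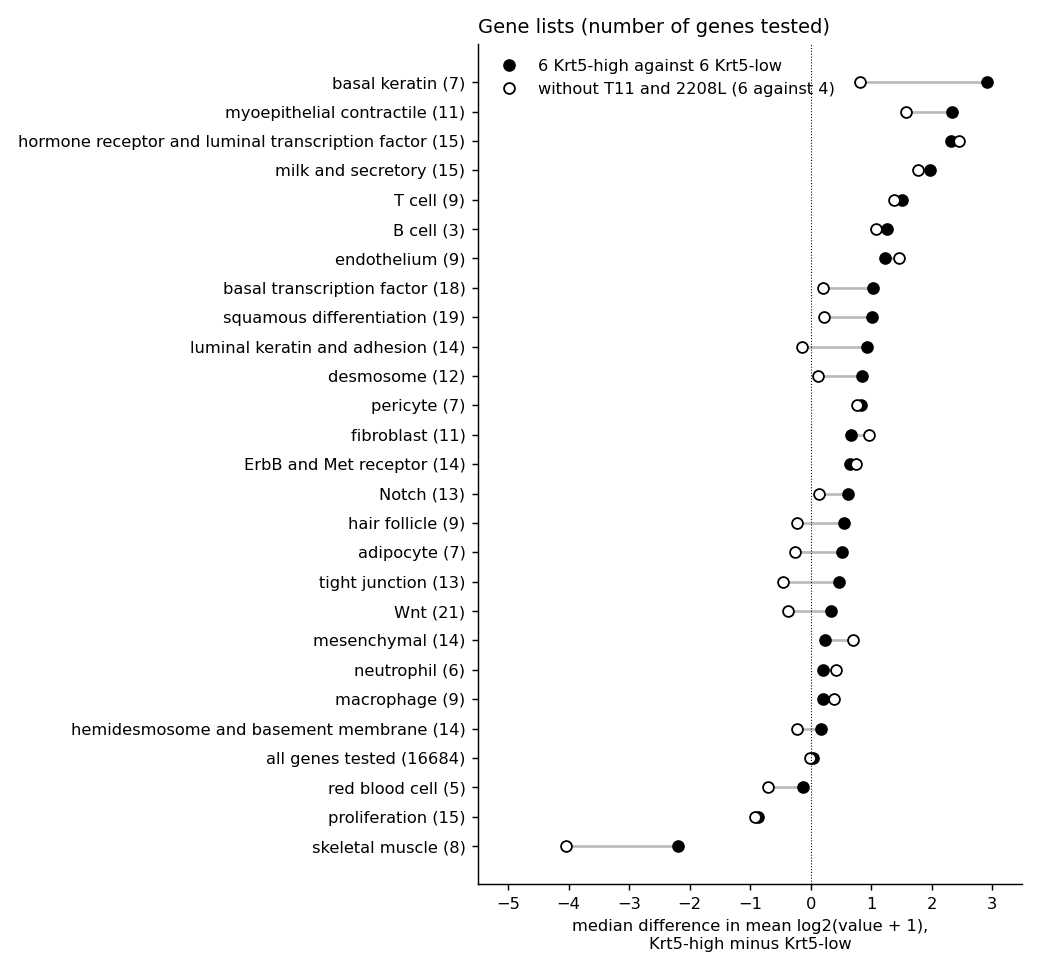
Median over each gene list of the difference in mean log2(value + 1), Krt5-high minus Krt5-low, over all 12 tumors (filled) and without T11 and p53-null_2208L (open). The basal keratins drop from 2.91 to 0.82, the hormone receptor list stays at 2.31 and 2.46 and proliferation at -0.87 and -0.92.

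A slope on the log2 level of Krt5 over all 13 tumors, which keeps the distance between tumors and includes p53-null_2225L, gave 7 of 16665 genes at a limma adjusted p below 0.05 (0.042%), all rising with Krt5. They were Cbr2, Efcab1, Fgfr2, Paqr6, Phyhip, Tmie and 4631405K08Rik. At an unadjusted p below 0.05, 1216 genes rose with Krt5 and 519 fell. Of the lists, 5 of 7 basal keratins and 7 of 11 contractile genes rose, and 0 and 1 fell. Hormone receptor and luminal factor genes rose in 2 of 15 and fell in 0. Endothelial markers rose in 0 of 9, and proliferation genes fell in 1 of 15. Fgfr2, a growth factor receptor of epithelium, was 1453 to 6461 in the Krt5-high tumors and 389 to 3674 in the other 4 Krt5-low tumors, against 4.79 in T11 and 5.53 in p53-null_2208L. Its slope was 0.67 ± 0.10 log2 units per log2 unit of Krt5 (limma adjusted p = 0.0276). The carbonyl reductase gene Cbr2 had 274 in T11 and 69.0 in p53-null_2208L and 521 to 3571 in the other 10 tumors of the groups.

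Phyhip was 1.30 in T11 and 0.779 in p53-null_2208L and at least 88.6 in the other 11 tumors. Tmie was the only gene of the 7 whose groups did not overlap, with 60.3 to 253 in the Krt5-high and 0.390 to 30.0 in the Krt5-low tumors. Over the 11 tumors without T11 and p53-null_2208L, 0 of 16695 genes passed, 390 had a positive and 625 a negative slope at an unadjusted p below 0.05. Over these 11 tumors the slope of Tmie was 0.47 ± 0.14, as over 13 (0.47 ± 0.06), with an adjusted p of 0.788 by limma. Those of the other 6 genes fell from 0.34 to 0.67 over 13 tumors to 0.12 to 0.25.

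In the 28 tumors that lack both p53 and Plk2, which the ranking did not use, Krt5 was 0 to 36680 with a median of 46.6. Only 2 of them had more than p53-null_10155, and 21 had less than p53-null_2153L. They were divided into the 14 with more and the 14 with less Krt5, and no p is given because several are transplants of related tumors. Of the 1097 genes higher in the Krt5-high p53-null tumors, 72.1% were also higher in the upper 14, where 62.9% of all tested genes were. Of the 658 lower genes, 41.6% were also lower, where 37.1% of all genes were.

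The lists differed in this. Of the basal keratins, 6 of 7 were higher in the upper 14 (median difference 1.79), as were 14 of 18 basal transcription factors (0.90) and 10 of 11 contractile genes (1.32), beside a median of 0.13 over all genes. Median Trp63 was 1951 in the upper and 41.7 in the lower 14, and median Col17a1 was 1224 and 18.5. Proliferation genes were higher in 8 of 15 and lower in 7, with a median of 0.16, and endothelial markers were higher in only 2 of 9, with a median of -0.31. Median Ect2 was 1473 in the upper and 1200.1 in the lower 14. The lower proliferation and higher endothelial markers of the Krt5-high p53-null tumors were thus not seen between the upper and lower 14. The 28 tumors differ from the p53-null tumors in genotype and were divided at a far lower level of Krt5. The contrasts are therefore unlike, and the difference between the genotypes was not tested.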

How the data were processed

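RNA of 41 BALB/c mammary tumors was sequenced, and 13 p53-null tumors were ranked here. The authors aligned reads to mm10 with STAR 2.7.6a, quantified genes with Salmon 1.4.0 and, per the file and their methods, scaled each tumor to an upper quartile of 1000. The deposited values are therefore normalized signal on a linear scale and not counts. Most nonzero values lay on whole multiples of the value of 1 read (77.8% to 80.5% per p53-null tumor, tolerance 0.1 reads), which is too few for a count test, so depth is an estimate. Intervals from it would cover counting error only.

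Values were used as log2(value + 1). A gene was tested where its mean over the 12 tumors was at least 10, with limma 3.58.1 (R 4.3.3, no intensity trend) and Benjamini-Hochberg adjustment at 0.05. Fold changes on this scale understate the change of low genes. Single genes and depth had two-sided exact permutation tests. Alternatives were other pseudocounts and filters, an intensity trend, TMM factors, quantile normalization, 4 tumors a group, each tumor left out and a slope on Krt5. No pair of tumors looked like 1 library deposited repeatedly.

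Named genes were Krt5, Plk2, Met, Cldn3 and Cldn7, the 10 genes in each direction without overlap and with the smallest p (the rule asked for called genes first, and there were none), and in each list up to 4 members with the smallest p and the 2 with the highest mean, or up to 3 for cell types. Genes called by the slope followed, and Krt14 to Krt17, Krt75, Trp63, Foxa1, Plk1, Lgals7 where outside the rule, T11's genes and other single genes were named after their values were seen. Predicted genes (symbols that start with Gm and a digit or end in Rik) were left out when the 10 were picked. In the 28 tumors with both genes lost, genes at an unadjusted p below 0.05 stood in for called genes. The members and lists were chosen with earlier results of these data known. Gene positions came from GENCODE vM21, in which 95.0% of 47480 symbols matched 1 gene, and promoters from RefSeq. Python 3.11.15, numpy 2.4.6, pandas 2.3.3, scipy 1.17.1 and matplotlib 3.10.9 were used.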

Additional observations from a re-analysis of the deposited data

Results flagged for a closer look

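In the groups of 6, 292 groups of the 146 named genes other than Krt5 were searched for a tumor whose gap to the nearest other was large for the range of its group (Dixon's criterion on log2 values), and 31 were found. Chance gives about 1 in 20 groups when the groups are independent and not picked by their values. These genes were partly picked by their values and share the same tumors, so that rate is no measure for the 31. No cause was tested. T11 was the lowest Krt5-low tumor, far below the others, for Cldn3 (19.9), Cldn7 (13.8), Cldn4 (6.92), Tjp3 (9.52), F11r (599), Tfap2c (12.1), Evpl (107), Ppl (22.5), Serpinb5 (0.866), Sfn (56.7), Kit (142), Wfdc18 (42.8) and Erbb3 (51.5). These are mostly genes of epithelial junctions and differentiation. In the same group p53-null_2208L was lowest for Snai2 (38.6) and Egfr (53.4), p53-null_7435 for Plk2 (186), p53-null_5317 for Krt8 (198) and p53-null_2396R for Tnik (914). The highest Krt5-low values of this kind were Fam3b (1.39) and Tagln (8315) in p53-null_2396R and Krt28 (30.9) in p53-null_2153L.

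Among the Krt5-high tumors p53-null_10152 was the lowest for Orc1 (76.0), Suv39h1 (369), Jup (4870.5) and Erbb3 (1192). Likewise p53-null_10151 was lowest for Tnik (351), p53-null_5329 for Cited1 (58.9), p53-null_2331L for Kit (959.9) and p53-null_10155 for Efcab1 (43.4). The highest were Cldn3 (11678) in p53-null_2224L and Lama3 (7143) in p53-null_10151.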

How the results depend on the processing

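The count of genes with an adjusted p below 0.05 was 0 with other pseudocounts, a mean of at least 100, an intensity trend, TMM factors, 4 tumors a group, and without T11, p53-null_2208L or both. It was 1 with no filter on low values (Trdv4), 2 after quantile normalization, 7 for the slope over 13 tumors and, chosen after seeing the data, 1 without p53-null_2153L and p53-null_7435 and 0 for the slope over 11 tumors. With each tumor left out in turn it was 0 to 6, with 6 genes without p53-null_5329 (Capn8, Cited1, Fam25c, Fam3b, Mrvi1 and Tph1), 4 without p53-null_7435 (Blk, Cd163l1, Gm4759 and Sptlc3) and 1 without p53-null_2331L (Tph1). List members called were 0 to 1, the 1 being Cited1 without p53-null_5329. Against the other 4 Krt5-low tumors the count was 0 to 1, with 1 gene each without p53-null_2153L (Pdzrn4), p53-null_2331L (RP23-325D10.3) and p53-null_5317 (Tmem233).

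Met turned from -0.39 to 0.62 without p53-null_2208L and 0.95 without both tumors, and ran from -1.24 to 0.62 with 1 tumor left out. Cldn3 turned from 0.11 to -1.42 without T11 and -1.42 without both, and ran from -1.42 to 0.52, with -0.16 without p53-null_2224L. Cldn7 turned from 0.52 to -0.92 without T11 and -0.77 without both, and ran from -0.92 to 0.93. Plk2 ran from 0.26 to 1.33. The share of genes of the same direction in the 28 tumors was 69.5% and 33.7% for 10 against 10 tumors, where 63.5% and 36.5% of all genes lay that way. Under the main fit and its alternatives other than slopes, proliferation genes lower at an unadjusted p below 0.05 numbered 5 to 13 of 15. The median difference was -0.98 to -0.75. Against the other 4 Krt5-low tumors, with 1 tumor left out in turn, the number was 6 to 14 and the median -1.15 to -0.80. The Krt5 groups were made of the same tumors after TMM scaling. No paired analysis was possible because the labels give no replicate numbers that the groups share. With 6 tumors a group, differences within the spread between tumors were not detectable.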
